A study of Mus musculus with 6 samples.

Results

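Scx, Mkx, Tnmd and the thrombospondin genes Thbs1, Thbs2, Thbs3 and Thbs4 were followed in bulk RNA sequencing of E18.5 mouse growth plate cartilage. These 7 genes were selected by name out of the 46078 genes listed in the count files, with their mutant-to-control differences already known. For that reason these differences are given as a description of 6 libraries and carry no test of their own. All 7 passed the low-count filter that left 16813 genes. In the Idh1 mutant libraries the tendon transcription factors Scx and Mkx and the tendon membrane protein gene Tnmd lay below every control library, at 72.9%, 69.5% and 57.2% of the control mean. The thrombospondins did not share a direction. Thbs3 lay above every control at 122% of the control mean, Thbs2 lay below every control at 88.7%, and Thbs1 and Thbs4 overlapped between the groups.

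Tendon and ligament cells arise from progenitors that express Scx, which encodes scleraxis, a basic helix-loop-helix transcription factor that binds E-box sequences in DNA. Mkx encodes Mohawk, a homeobox factor needed for normal collagen fibril growth in tendon, and Tnmd encodes tenomodulin, a type II transmembrane glycoprotein of mature tendon cells whose expression depends on scleraxis. Thrombospondins are secreted calcium-binding glycoproteins of the extracellular matrix. Thrombospondins 1 and 2 are trimers that inhibit blood vessel growth, whereas thrombospondins 3 and 4 and the cartilage oligomeric matrix protein Comp are pentamers, and thrombospondin 4 is abundant in tendon and at muscle attachments. At the end of the long bones, tendons and ligaments insert next to the growth plate, so that a dissected growth plate can carry some of them.

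The 3 control libraries had the genotype Idh1 LSL/+, a lox-stop-lox allele of Idh1 without Cre, and the 3 mutant libraries carried the same allele together with Col2a1-Cre. Col2a1-Cre acts in cells with Col2a1 promoter activity, mainly chondrocytes and their progenitors, and the presence of Cre cannot be told apart from the expression of mutant Idh1 in this design. Cartilage came from the distal femur and proximal tibia. The labels gave the age as E18.5, although their text on breeding gave 2 months, and E18.5 was used. The methods describe the controls as littermates, but litters are not in the labels and were not used here. The labels do not tie each library to an animal, so p-values measure the spread between these libraries, which may be partly technical.

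Between 23445687 and 30415773 reads were counted on genes in each library, and 3 counts corresponded to 0.0986 to 0.128 CPM (counts scaled to the size of the library). The labelled cell type, growth plate chondrocytes, was represented by 9 of 9 chondrocyte markers, with Col2a1 highest in that list. Col1a1, the collagen of bone and tendon, was nevertheless higher than Col2a1 per kilobase of exon, with 5804 ± 1272 against 524 ± 197 CPM per kb in controls (SD, n = 3), and all 9 skeletal muscle markers were detected. Genes of other tissues were thus present in the libraries. Mutant 3 stood apart from the other 5 libraries in sex-linked genes, with 26356 Xist counts and 0 counts over 4 Y-linked genes, against 0 to 13 and 3871 to 5449 counts elsewhere. The labels give no sex, but these counts are those of a female library for mutant 3 and of male libraries for the other 5. Sex was thus not balanced between the groups. Values without mutant 3 are given below, which matters most for Tnmd because that gene is X-linked.

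The positions of the genes are given on GRCm38. Scx is at chr15:76457438-76459468 on the forward strand, inside the span of the reverse-strand gene Bop1 but with no exon base in common. Tnmd is at chrX:133850980-133865577 (forward strand). Thbs1 is at chr2:118111876-118127133 (forward), Thbs2 at chr17:14665500-14694262 (reverse), Thbs3 at chr3:89215180-89226837 (forward) and Thbs4 at chr13:92751590-92794818 (reverse). Thbs3 shares 318 exon bases, 6.59% of its exons, with the reverse-strand gene Mtx1, and Thbs1 shares 208 bases (3.42%) with Gm29233. The reads were counted without regard to strand and reads that fell on more than 1 gene were left out, so these stretches contributed little or nothing, and the levels per length of these genes are uncertain to that extent.

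The sequence upstream of the transcription start is shown for the gene that was lowest relative to controls, Tnmd, and for the pair of thrombospondins that differed in opposite directions, Thbs3 and Thbs2. RefSeq promoter windows (GRCm38.p6) were matched for 4 of the 7 genes: Tnmd, Thbs2, Thbs3 and Thbs4. The stretches run 5′ to 3′ on the gene's own strand and end at the base before the gene's start in the count files, and the E-box CANNTG, the letters that basic helix-loop-helix factors such as scleraxis recognise, is in capitals. CANNTG reads the same on both strands. The stretches cover chrX:133850758-133850979 (forward), chr3:89214930-89215179 (forward) and chr17:14694263-14694512 (reverse).
Tnmd: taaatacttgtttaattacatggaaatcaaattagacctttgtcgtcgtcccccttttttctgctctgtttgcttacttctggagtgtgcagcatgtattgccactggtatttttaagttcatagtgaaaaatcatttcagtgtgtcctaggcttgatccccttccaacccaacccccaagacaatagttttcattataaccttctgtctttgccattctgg
Thbs3: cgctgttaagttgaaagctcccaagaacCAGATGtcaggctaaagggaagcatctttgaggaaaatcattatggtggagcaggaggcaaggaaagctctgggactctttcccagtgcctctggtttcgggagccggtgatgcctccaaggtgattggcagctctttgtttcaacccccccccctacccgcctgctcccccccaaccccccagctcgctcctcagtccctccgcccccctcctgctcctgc
Thbs2: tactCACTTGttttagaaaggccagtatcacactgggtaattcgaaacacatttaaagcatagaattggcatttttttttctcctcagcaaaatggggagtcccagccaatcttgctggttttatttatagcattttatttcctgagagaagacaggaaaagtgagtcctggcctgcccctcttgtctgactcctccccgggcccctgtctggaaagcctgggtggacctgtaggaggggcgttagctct

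The Tnmd stretch of 222 bases held 0 CANNTG matches. Thbs3 held 1 match, CAGATG, whose first base is at position -222 from the gene's start, Thbs2 held 1, CACTTG, at -246, and Thbs4 held 1, CAAATG, at -115. CANNTG was present in 66.2% of 32851 RefSeq windows of 250 bases and CAGATG in 14.4%, so a single match is common. The GC content of the whole windows of 250 bases was 38.4% in Tnmd, 46.8% in Thbs2, 58.8% in Thbs3 and 70.8% in Thbs4. The median over all windows was 52.4%. For Tnmd the window runs past the printed 222 bases into the gene. These matches describe the letters of the windows and say nothing of binding.

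To describe the transcription factors, their levels were compared between controls 1, 2 and 3 and mutants 1, 2 and 3. Scx measured 61.9, 71.1 and 57.6 CPM in controls, compared with 47.9, 46.4 and 44.7 CPM in mutants. The 3 mutants lay close together, and the highest of them was 9.72 CPM under the lowest control. The means were 63.5 ± 6.90 and 46.3 ± 1.59 CPM (SD, n = 3 each), a log2 fold change of -0.46 with a standard error (SE) of 0.09. Mkx, at chr18:6910459-7004780 on the reverse strand, measured 46.7, 42.3 and 44.8 CPM in controls, compared with 32.6, 26.0 and 34.4 CPM in mutants. Here it was the controls that lay close together, while mutant 2 was lowest, and the groups were 7.92 CPM apart. Its means were 44.6 ± 2.22 and 31.0 ± 4.40 CPM, a log2 fold change of -0.52 (SE 0.11).

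Tnmd was counted far more deeply than either factor, with 6056 to 16144 reads per library. Controls reached 547, 526 and 437 CPM, compared with 256, 287 and 320 CPM in mutants. Control 3 was the lowest control and mutant 3 the highest mutant, and they were still 117 CPM apart. The means were 503 ± 58.6 and 288 ± 31.9 CPM, a log2 fold change of -0.81 (SE 0.12), the lowest among the 7 genes. Without mutant 3, the library that stood apart in sex-linked genes, the log2 fold change of Tnmd was -0.89, that of Scx -0.43 and that of Mkx -0.61. The lower levels of all 3 genes were thus also present in mutants 1 and 2. In bulk tissue, fewer cells of a type and less RNA per cell cannot be told apart.

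Among the trimeric thrombospondins, Thbs1 measured 278, 264 and 238 CPM in controls, compared with 259, 286 and 307 CPM in mutants. The groups overlapped, with means of 260 ± 20.3 and 284 ± 24.0 CPM and a log2 fold change of 0.13 (SE 0.10). Thbs2 measured 1222, 1216 and 1272 CPM in controls, compared with 1025, 1119 and 1145 CPM in mutants. The controls varied little (coefficient of variation 2.50%), every mutant was lower, and the closest libraries were 70.7 CPM apart. The means were 1237 ± 30.9 and 1097 ± 63.0 CPM, a small log2 fold change of -0.17 (SE 0.10).

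Of the pentameric thrombospondins, Thbs3 measured 341, 385 and 363 CPM in controls, compared with 427, 424 and 480 CPM in mutants. Every mutant was higher, by at least 39.3 CPM, and mutant 3 was the highest. The means were 363 ± 21.7 and 444 ± 31.4 CPM, a log2 fold change of 0.29 (SE 0.09). Thbs4 measured 757, 853 and 834 CPM in controls, compared with 777, 753 and 942 CPM in mutants. Only mutant 3 was above the controls, and the means of 815 ± 50.6 and 824 ± 103 CPM differed by less than the spread between libraries (log2 fold change 0.02, SE 0.11). Without mutant 3, the log2 fold changes were 0.07 for Thbs1, -0.21 for Thbs2, 0.23 for Thbs3 and -0.09 for Thbs4. The sign of Thbs4 therefore rested on mutant 3, and it also turned, to -0.03, without control 1.

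**Figure D1:**
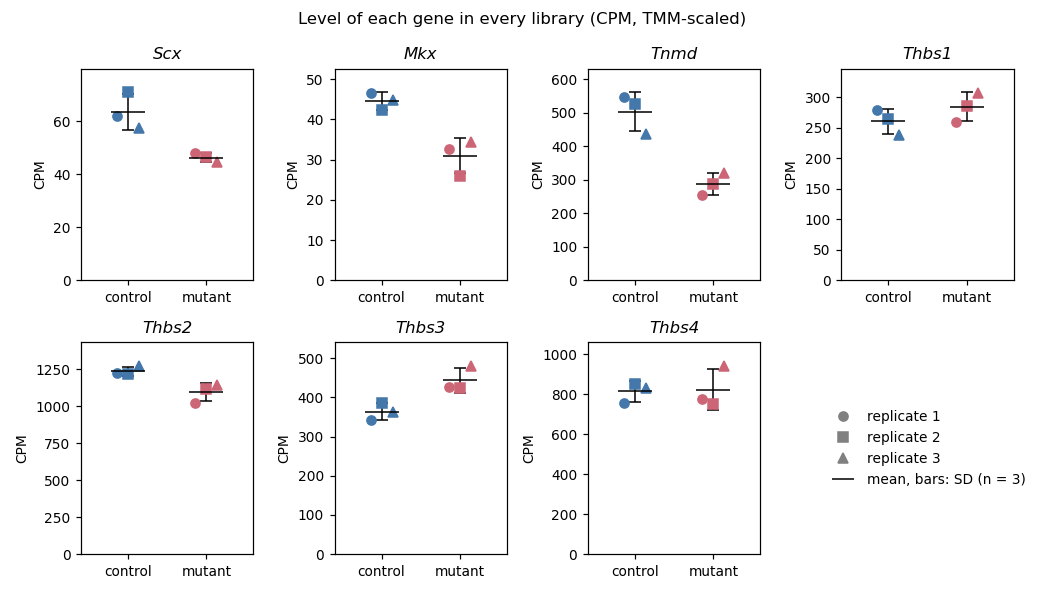
Level of each of the 7 genes in every library, in CPM scaled with TMM factors (trimmed mean of M-values, a correction for library composition), with each vertical axis starting at 0. Blue points are controls, red points are mutants, and bars show the mean ± SD (n = 3). Scx, Mkx, Tnmd and, by less, Thbs2 (88.7% of the control mean) separate downward in the mutants, Thbs3 upward, and Thbs1 and Thbs4 overlap.

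Across all genes, the edgeR quasi-likelihood test with Benjamini-Hochberg adjustment called 32 of 16813 genes at an adjusted p under 0.05, of which 23 were lower in mutants (0.137% of genes tested) and 9 higher (0.0535%). Of the 7 genes, 1 was called lower (Tnmd) and 0 higher, and at an unadjusted p under 0.05 the counts were 3 lower and 1 higher. In all, 1452 genes had an unadjusted p under 0.05. With DESeq2, which called 0.833% of genes lower and 0.315% higher, 3 of the 7 were called lower (Scx, Mkx and Tnmd) and 0 higher. Libraries of the groups did not overlap, mutants lower, for 4 of the 7 genes against 7.58% of all genes, and mutants higher for 1 of the 7 against 6.85%. Because the genes were chosen for this contrast, nothing is read from these counts. The call of Tnmd was lost when any library other than control 3 was left out, although its log2 fold change stayed between -0.90 and -0.73.

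To compare levels between genes, counts were divided by exon length. In controls, Tnmd was the highest of the 7 with 372 ± 43.3 CPM per kb, followed by Thbs4 (248 ± 15.4), Thbs2 (209 ± 5.22), Thbs3 (75.3 ± 4.51), Scx (55.9 ± 6.08), Thbs1 (42.8 ± 3.34) and Mkx (11.4 ± 0.565). No neighbours in this order overlapped over the 3 controls. In mutants the order was Thbs4 (251 ± 31.4 CPM per kb), Tnmd (213 ± 23.6), Thbs2 (185 ± 10.6), Thbs3 (92.0 ± 6.51), Thbs1 (46.7 ± 3.96), Scx (40.8 ± 1.40) and Mkx (7.90 ± 1.12). The 3 highest genes were close in the mutants: the ranges of Thbs4 and Tnmd overlapped, as did those of Tnmd and Thbs2, although the order held within each of the 3 libraries. Tnmd and Thbs4 thus exchanged places between the groups, and so did Scx and Thbs1.

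**Figure D2:**
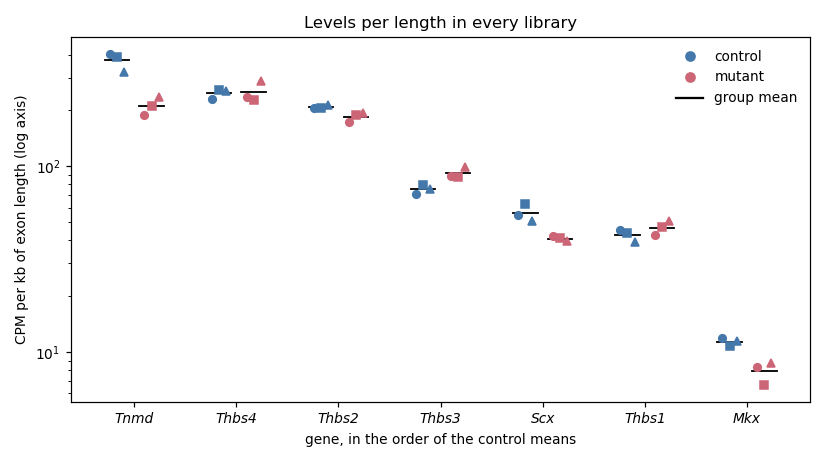
CPM per kb of exon length (log axis) of the 7 genes, ordered by the control mean, with 1 point per library and a line at the mean of each group. Tnmd leads the controls at 372 CPM per kb and lies between Thbs4 and Thbs2 in the mutants.

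Ratios of 2 genes within a library do not depend on the library's scaling, and they were compared for pairs of the 7 genes. They use the same libraries as the differences above and are descriptions as well. The ratio of Tnmd to Thbs4 per kb was 1.76, 1.50 and 1.27 in controls, compared with 0.802, 0.926 and 0.826 in mutants. Tnmd exceeded Thbs4 in 3 of 3 controls and in 0 of 3 mutants. The ratio of Tnmd to its upstream factor Scx had means of 6.67 ± 0.657 and 5.23 ± 0.759, with control 2 at 6.21 just above mutant 3 at 6.01. Mkx and Scx, in contrast, kept about the same ratio, with means of 0.205 ± 0.0289 and 0.194 ± 0.0302 and overlapping groups. The ratio of Tnmd to Mkx also overlapped, with 32.8 ± 4.06 in controls and 27.3 ± 4.61 in mutants. Scx relative to Thbs3 was 0.743 ± 0.0604 in controls and 0.446 ± 0.0436 in mutants, with no overlap.

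Within the thrombospondin family the ratio of Thbs3 to Thbs2 per kb was 0.343, 0.389 and 0.351 in controls, compared with 0.511, 0.465 and 0.515 in mutants. All mutants lay above all controls, with means of 0.361 ± 0.0245 and 0.497 ± 0.0275. The ratio of Thbs3 to Thbs1 overlapped (1.77 ± 0.196 and 1.97 ± 0.104). Summed over the 5 family genes including Comp, the level was 675 ± 35.0 CPM per kb in controls and 665 ± 48.1 in mutants, a difference smaller than the spread. Thbs4 made up 36.7% ± 1.90 of that sum in controls and 37.6% ± 2.00 in mutants, Thbs2 31.0% ± 2.12 and 27.9% ± 2.03, Comp 14.8% ± 3.58 and 13.6% ± 2.97, and Thbs1 6.35% ± 0.540 and 7.03% ± 0.494. The share of Thbs3 was 10.8%, 11.2% and 11.5% in controls, compared with 13.6%, 14.1% and 13.8% in mutants. Its means were 11.2% ± 0.364 and 13.8% ± 0.246, the family share with the smallest spread between libraries.

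**Figure D3:**
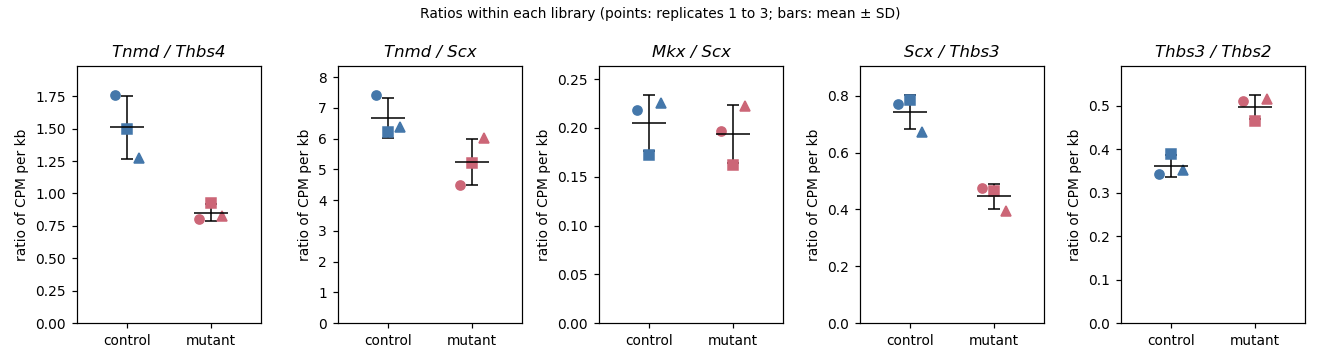
Ratios of CPM per kb within each library for 5 pairs of genes, with each axis starting at 0; points are replicates 1 to 3 and bars the mean ± SD. Tnmd/Thbs4, Tnmd/Scx and Scx/Thbs3 are lower and Thbs3/Thbs2 is higher in every mutant, while Mkx/Scx overlaps.

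How the 7 genes varied together was described with Pearson's r of log2 CPM over the 6 libraries, which share the difference between the group means. Scx and Tnmd had r = 0.90, Mkx and Tnmd 0.87, Tnmd and Thbs2 0.86 and Scx and Mkx 0.78, whereas Tnmd and Thbs3 had -0.78. Taken as deviations from the group means, most of these were weak, at 0.25, 0.12, 0.31, -0.29 and 0.34 in the same order. Scx and Mkx thus shared the difference between groups. With 3 libraries in each group, the deviations cannot show whether these genes also vary together within a group. The closest pairs within groups were Tnmd and Thbs1, with r = 0.99 of the deviations but -0.25 over all libraries, and Thbs3 and Thbs4, with 0.95 and 0.49. They were picked as the highest among all pairs of the 7 genes. With so few libraries a high r is easily reached, so nothing is read from them. Mutant 3 was the highest mutant for 6 of the 7 genes, Scx being the exception.

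For each gene the tested genes with the highest r over the 6 libraries were listed, up to 3 of them. They were Plac1, Slc14a1 and Fam198a for Scx (r of 0.9961, 0.9934 and 0.9906), Gm13446, Gm9938 and Lcor for Mkx (0.9894, 0.9869 and 0.9868), and Col4a4, Isoc2a and Ogn for Tnmd (0.9832, 0.9828 and 0.9811). For the thrombospondins they were Gm24907, Ttc32 and Slc41a2 for Thbs1 (0.9931, 0.9877 and 0.9869), Jade1 and Tango2 among those for Thbs2 (0.9891 and 0.9835), Bax, Gm11400 and Cpsf3 for Thbs3 (0.9981, 0.9932 and 0.9928), and Bod1l, Elf1 and Gm14165 for Thbs4 (0.9782, 0.9755 and 0.9719). With 6 libraries such values are common: between 12 genes (Thbs4) and 83 genes (Scx) had r over 0.95. Of these neighbours Ogn, which encodes the small leucine-rich proteoglycan osteoglycin, is also in the tendon and ligament matrix list.

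Other genes of tendon were taken from lists written with earlier results of these data known. They are described by counts beside the median log2 fold change of all genes tested, -0.0026. Of all 16813 genes tested, 1452 had an unadjusted p under 0.05 from edgeR in either direction. Groups did not overlap, mutants lower, for 7.58% of all genes. Because the lists were written with results known, nothing is read from their counts. Among 14 tendon regulators, 0 were called in either direction by edgeR, 3 were lower at an unadjusted p under 0.05, and the median log2 fold change was -0.13. Those 3 were Eya2 (-0.68, SE 0.19), Eya1 (-0.46, SE 0.18) and Etv4 (-0.38, SE 0.13). Eya1 and Eya2 encode coactivators of transcription, and Etv4 encodes an ETS factor induced by fibroblast growth factor signalling. Eya2 measured 24.0, 22.7 and 28.4 CPM in controls, compared with 21.5, 12.6 and 12.9 CPM in mutants, with mutant 1 close to the controls. Tgfbr2, the transforming growth factor beta receptor required for tendon formation and the highest of the list in CPM, overlapped (264 ± 15.2 and 260 ± 22.3 CPM).

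Among 20 tendon and ligament matrix genes, 1 was called lower by edgeR and 0 higher, and the median was -0.12. At an unadjusted p under 0.05, 6 were lower. Groups did not overlap, mutants lower, for 7 of the 20, against 7.58% of all genes. The called gene was Cilp, which encodes cartilage intermediate layer protein. It measured 164, 168 and 134 CPM in controls, compared with 92.8, 105 and 84.8 CPM in mutants, with a gap between the groups. Its log2 fold change was -0.72 (SE 0.11), with a Benjamini-Hochberg adjusted p of 0.0444 from edgeR. The call was lost with limma-voom, with upper-quartile factors, with the stricter count filter and in 5 of 6 fits that left out 1 library. Of the other 5, Fmod, which encodes the fibril-binding proteoglycan fibromodulin, measured 1576, 1660 and 1911 CPM in controls, compared with 1144, 890 and 997 CPM in mutants (-0.76, SE 0.13). Kera, which encodes keratocan, fell short of the adjusted threshold as well, with 184 ± 31.1 and 109 ± 19.8 CPM (-0.75, SE 0.15). Col1a1, the most abundant of the list, did not separate, at 38093 ± 8346 and 38371 ± 707 CPM. The ratio of Tnmd to Col1a1 per kb was 0.0670 ± 0.0196 in controls and 0.0364 ± 0.00404 in mutants without overlap, control 3 (0.0444) being closest to the mutants.

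Of 14 thrombospondin partners, which comprise Comp and known receptors and ligands, 0 were called, 0 had an unadjusted p under 0.05, 0 had groups without overlap, and the median was 0.04. Comp, which binds collagens in cartilage and tendon, measured 250, 309 and 172 CPM in controls, compared with 269, 175 and 215 CPM in mutants. It spread widely within both groups, which overlapped. Calr, which encodes the chaperone calreticulin and was the highest of this list in CPM, stood at 837 ± 94.2 and 978 ± 112 CPM.

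Of 8 genes of tendon sheath, enthesis and myotendinous junction, 0 were called and 3 were lower at an unadjusted p under 0.05, with a median of 0.03. Gli1 and Ptch1 are targets of hedgehog signalling, which marks enthesis cells and is also active in the growth plate. Gli1 measured 96.7, 120 and 101 CPM in controls, compared with 83.7, 74.1 and 61.9 CPM in mutants (-0.53, SE 0.12), and Ptch1 at 118, 117 and 136 and at 103, 87.5 and 69.9 CPM (-0.51, SE 0.13). Neither overlapped between the groups. Prg4, which encodes the joint lubricant lubricin, overlapped because control 3, at 79.5 CPM, lay among the mutants (133 ± 62.7 and 80.4 ± 2.03 CPM). Tppp3, a marker of tendon sheath cells and the highest of the list in CPM, overlapped too, at 331 ± 11.6 and 381 ± 80.0 CPM.

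Tenomodulin shares its BRICHOS domain with few proteins, of which 7 genes were listed and 4 could be tested. Its closest relative, Cnmd (listed under the older symbol Lect1), encodes chondromodulin of avascular cartilage. Cnmd measured 99.6, 160 and 50.6 CPM in controls, compared with 113, 79.8 and 92.5 CPM in mutants. Unlike Tnmd it overlapped between the groups, with control 2 above and control 3 below every mutant. The ratio of Tnmd to Cnmd overlapped as well. Itm2a, the highest of the list in CPM, stood at 1352 ± 96.1 and 1165 ± 19.9 CPM, with every mutant lower (-0.21), and 0 of the 4 tested genes were called. Gkn2 had 0 counts in every library, and Gkn1 had too few for a test. Bricd5 also had 0 counts, but all 997 of its exon bases are shared with Mlst8. Reads that fell on more than 1 gene were left out, so the level of Bricd5 could not be measured.

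**Figure D4:**
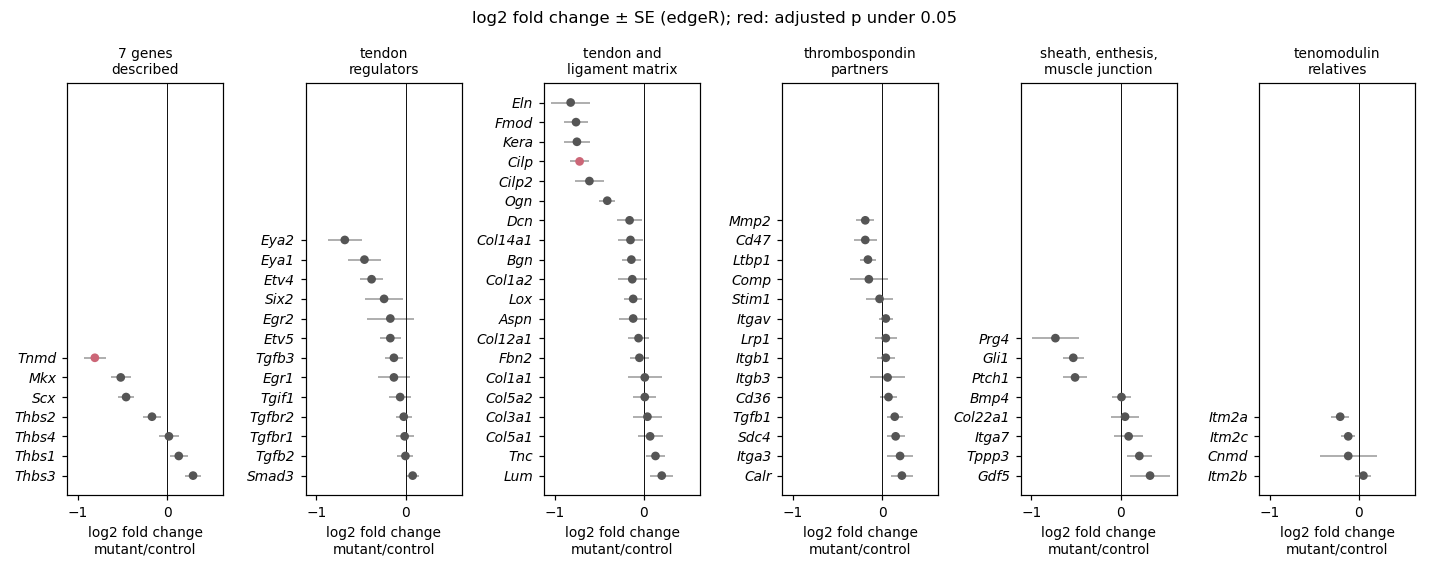
Log2 fold change of mutant over control (points) with its SE (bars) from edgeR for the 7 genes and for 5 lists of related genes, each panel ordered by its values; the 3 list genes that could not be tested and 1 other are not shown. Red points, Tnmd and Cilp, had an adjusted p under 0.05; Tnmd, Mkx and Scx lie left of 0, while the thrombospondins lie around it.

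Markers of other tissues were summed in each library and are given beside the tendon genes. The sum of Scx, Mkx and Tnmd was 539 to 656 CPM in controls and 337 to 399 in mutants. It is mostly Tnmd, whose means were 503 CPM in controls and 288 CPM in mutants. The sums of chondrocyte markers (3290 to 6717 and 5227 to 7374 CPM), skeletal muscle markers (18045 to 26158 and 16908 to 24671) and loose connective tissue fibroblast markers (665 to 709 and 515 to 862) overlapped. The chondrocyte sum is mostly Col2a1 (3144 ± 1180 and 4287 ± 840 CPM). Of the 9 chondrocyte markers, 5 had log2 fold changes below 0, with a median of -0.12, and 0 were called. Endothelium, platelet, Schwann cell and adipocyte sums overlapped as well, with Pf4 leading the platelet sum and Pmp22 the Schwann cell sum. Of 5 endothelium markers 0 were called, but 2 had every mutant above every control, against 6.85% of all genes. These were Kdr (126 ± 1.59 and 150 ± 3.79 CPM) and Emcn (36.4 ± 3.05 and 45.0 ± 1.40 CPM). In the platelet list the same held for Itga2b alone (7.54 ± 1.15 and 10.3 ± 1.67 CPM). The sum of the 20 tendon and ligament matrix genes, which Col1a1 leads, overlapped too (90796 to 113237 and 90486 to 98742). The sum of 7 osteoblast markers overlapped too (33928 to 48055 and 39314 to 41165 CPM), but it is almost all Col1a1. None of the 7 log2 fold changes was below 0, with a median of 0.49, 0 of them called and 2 higher at an unadjusted p under 0.05. These were Dmp1, a matrix protein gene of osteocytes, with 82.8, 21.3 and 6.75 CPM in controls, compared with 84.4, 198 and 90.7 CPM in mutants (1.75, SE 0.69), and Ibsp, which encodes bone sialoprotein, with 973, 332 and 120 CPM in controls, compared with 1141, 1474 and 951 CPM in mutants (1.32, SE 0.57). Every mutant was above every control for Dmp1, though control 1 was close to mutant 1, while control 1 lay among the mutants for Ibsp. Without Col1a1, a split made after the values were seen, the other 6 osteoblast markers summed to 325 to 1303 CPM in controls and 1242 to 1986 in mutants, with control 1 alone among the mutants. Of the adipocyte markers, Adipoq and Plin1 were at or near 0. In CPM, the highest genes of these lists were Col2a1, Myh8, Col1a1, Cd34, Cdh5, Pf4, Pmp22 and Fabp4.

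Among the marker lists of other tissues, the sums of 2 did not overlap. The blood and immune list, led by the haemoglobin gene Hbb-bs, came to 569 to 1554 CPM in controls and 327 to 509 in mutants. Its members did not share a direction, and 0 of 6 were called. The 4 haemoglobin genes were lower at an unadjusted p under 0.05 and summed to 518 to 1521 CPM in controls and 278 to 412 in mutants. The immune cell genes Ptprc (0.58, SE 0.17) and Lyz2 (0.99, SE 0.26) had positive log2 fold changes at an unadjusted p under 0.05, and their sum overlapped between the groups, at 31.7 to 50.8 and 49.7 to 96.1 CPM. Epidermis markers came to 10.2 to 20.2 CPM in controls and 9.09 to 9.91 CPM in mutants, with Krt10 highest over the 6 libraries. Krt5 was called lower by edgeR (0 to 0.379 CPM in mutants against 2.94 to 7.89). Krt10, Krt1 and Trp63 overlapped between the groups, and Krt14 had too few counts for a test. The part that any of these tissues plays in the levels of Scx, Mkx and Tnmd was not tested.

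**Figure D5:**
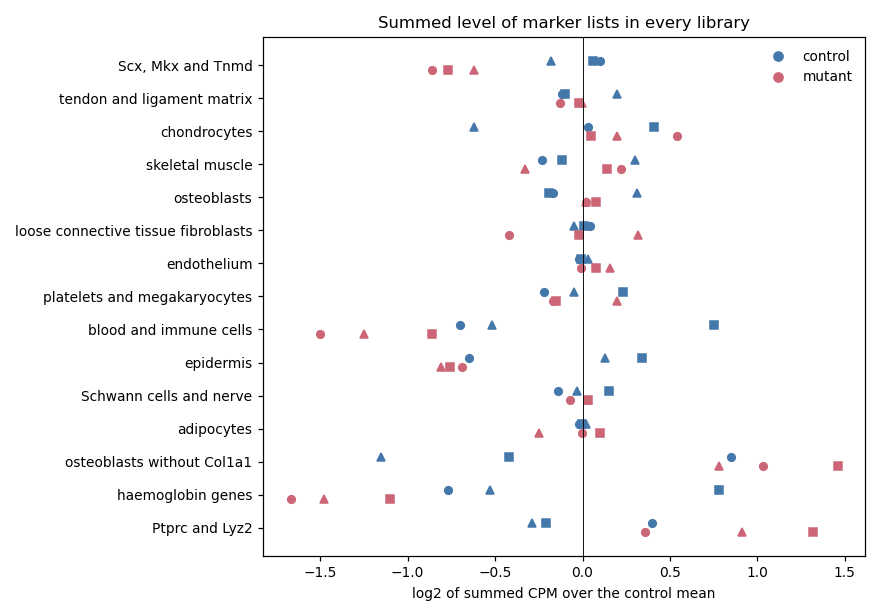
Summed CPM of marker lists in every library, as log2 over the control mean; blue points are controls, red points mutants, and symbols give the replicate number. The sum of Scx, Mkx and Tnmd, which Tnmd leads, lies left of all controls in the 3 mutants (-0.86 to -0.62). So do the haemoglobin genes and, narrowly, the epidermis list, in which Krt10, Krt1 and Trp63 overlap between the groups. Osteoblast markers without Col1a1 and the pair Ptprc and Lyz2 lie mostly to the right in mutants, while chondrocyte and muscle markers are mixed.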

How the data were processed

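Growth plate libraries (3 control and 3 Idh1 mutant) were analysed, grouped by the genotype in the labels. Per the methods, poly(A) RNA was selected with oligo-dT and read as 50 bp single-end sequences. The authors trimmed reads with Trim Galore 0.6.4, mapped them to GRCm38 with STAR 2.6.1d and counted them with featureCounts 1.6.4. The deposited values are raw counts per gene, without normalization, and the file headers give an unstranded setting.

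The counts were fitted with edgeR 4.0.16 in R 4.3.3: filterByExpr (minimum count 10, minimum total 15), TMM factors (0.964 to 1.02) and a quasi-likelihood test of genotype over 16813 genes with Benjamini-Hochberg adjustment. The study's fit also used litter, which is not in the labels. CPM used TMM factors, and CPM per kb the exon length in the files. Log2 CPM for correlations used a prior count of 2. DESeq2 1.42.0, limma-voom (limma 3.58.1), the replicate number as a block, upper-quartile factors, 2 other count filters, CPM without TMM factors and each library left out were alternatives. Replicate libraries differed by far more than counting error, with a chi-square of 11.4 to 45.2 for each degree of freedom, and all were kept as separate samples. The floor of 3 counts covers counting error only. Figures were drawn with matplotlib 3.10.9. The files held 0 unused columns of per-sample values.

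The 7 genes and all lists were chosen with earlier results of these data known. Named list genes were those called, otherwise up to 3 with the lowest p, and the most abundant. Fmod, Kera, Comp, Cnmd, Dmp1, Ibsp, Kdr, Emcn, Itga2b, Ptprc and Lyz2 were added after their values were seen. The results of a few single genes are left out.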

Additional observations from a re-analysis of the deposited data

How the results depend on the processing

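The number of genes called, 32 with edgeR, was 193 with DESeq2, 96 with DESeq2 and the replicate block, 3 with edgeR and the replicate block, 19 with limma-voom, 259 without a count filter, and 3 to 17 with 1 library left out. Of the 7 genes, 1 was called with edgeR, 3 with DESeq2 and without a count filter (Scx, Mkx and Tnmd), 2 with DESeq2 and the replicate block, 0 with edgeR and the replicate block, and 0 to 1 with 1 library left out. Among the listed genes, where 1 (Cilp) was called, the counts were 8 with DESeq2, 4 with DESeq2 and the replicate block, 10 without a count filter, 0 with edgeR and the replicate block, limma-voom, upper-quartile factors or at least 10 counts in every library, and 0 to 1 with 1 library left out. The cause of these shifts was not tested. Deviations from the group means correlated at -0.127, 0.007 and -0.0953 between libraries of equal replicate number. With 3 libraries in each group such values cannot show whether litters were paired, so any pairing remains unknown. The log2 fold change of Thbs4, 0.02, was reversed without control 1 (-0.03) and without mutant 3 (-0.09), in a range from -0.09 to 0.08 with 1 library left out. The signs of the other 6 genes held in all these settings, from -0.52 to -0.36 for Scx, -0.61 to -0.41 for Mkx and -0.90 to -0.73 for Tnmd with 1 library left out. Levels without TMM factors moved by less than 1 SD. A gene under 3 counts was below the limit of detection.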
